A study of Homo sapiens with 2 samples.

Results

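The genes described here encode the proteins of the cytosolic ribosome. They were taken by symbol: a probe set was a member when the platform annotation assigned it to 1 gene and that gene was named RPL or RPS plus a number, with or without a final A or X, or was RPLP0, RPLP1, RPLP2 or RPSA. The rule found 111 probe sets of 52 genes among 41091 probe sets of 1 gene, out of 54675 on the array, and used no measured value. 32 of the genes encode proteins of the large (60S) subunit and 20 encode proteins of the small (40S) subunit. RefSeq lists 77 genes with such names. Of the 25 that the rule did not reach, 15 were annotated on probe sets of several genes (RPL4, RPL5, RPL7A, RPL10, RPL13, RPL13A, RPL17, RPL21, RPL23, RPL28, RPS2, RPS3A, RPS13, RPS20 and RPS26), and the other 10 were not analysed here.

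Both samples were MEG-01, an established human megakaryoblastic line from chronic myeloid leukaemia. One was transduced with GAS2DN, a truncated GAS2 that acts as a dominant negative form, and the other with the same lentiviral vector without it (Venus). The methods state that the vector carries an SFFV promoter and a fluorescent Venus reporter behind an IRES, that fluorescent cells were sorted, and that equal amounts of RNA from 3 preparations were pooled within each condition and hybridised to 1 array (Affymetrix U133 Plus 2.0). The pool is thus 1 sample: the spread between the 3 preparations was not recorded, no test between conditions could be made, and every value below compares these 2 arrays.

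A ribosome is built from RNA and from many small, mostly basic proteins, which hold the RNA in shape and line the paths of the mRNA and of the growing peptide. Their genes are among the most strongly transcribed in dividing cells, and most of their mRNAs start with a C followed by an unbroken stretch of pyrimidines, the 5′ terminal oligopyrimidine (TOP) tract, through which the mTOR pathway sets how well they are translated. In blood, loss of 1 copy of several of these genes causes Diamond-Blackfan anaemia, a failure of red cell production, and loss of 1 copy of RPS14 contributes to the anaemia of the 5q- syndrome.

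The TOP tract could be looked up for 46 of the 52 genes in RefSeq (build GRCh38.p14); RPL7, RPL8, RPL23A, RPL30, RPL37 and RPS15A were not matched. The first transcribed base was a C at 1 or more annotated starts of 37 of these 46 genes (80.4%), against 2375 of 15843 protein-coding genes in the same table. In 34 of the 46 genes (73.9%) this C was followed by 4 further bases that were all C or T, against 6.24% of all those genes. The longest run of C and T that covered the start had a median length of 11 bases over the 46 genes, and a median of 0 over all genes. Shown here are 30 bases around the start, with the first transcribed base as the base after the first 15, for RPL37A, RPS16 and RPS10, which had the highest log2 ratios by main probe set among the genes with an entry, for RPL36A, RPLP2, RPL38 and RPS28, which had the lowest, and for RPL35A, whose probe sets disagreed most among those with strong signals. Capitals mark the run of C and T across the start.
RPL37A: gcaccgcgTCTCTTCCTTTCTgggctcgga
RPS16: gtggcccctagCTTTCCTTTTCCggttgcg
RPS10: ccgcgcatgCTCCTTCCTTTCCagccccgg
RPL35A: cggcggggcctcgTCCTTCTCTTaccgcca
RPL38: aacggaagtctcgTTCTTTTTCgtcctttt
RPLP2: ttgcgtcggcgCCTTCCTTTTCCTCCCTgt
RPL36A: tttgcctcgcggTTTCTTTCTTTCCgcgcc
RPS28: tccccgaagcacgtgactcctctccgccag
The windows lie at chr2:216498829-216498858 (RPL37A), chr3:197950175-197950204 (RPL35A), chr17:74203663-74203692 (RPL38), chr11:809952-809981 (RPLP2), chrX:101390996-101391025 (RPL36A) and chr19:8321481-8321510 (RPS28) on the plus strand, and at chr19:39435935-39435964 (RPS16) and chr6:34426055-34426084 (RPS10) on the minus strand. Such runs were found in genes at both ends of the ratios, with 12 to 13 bases in RPL37A, RPS16 and RPS10 and 9 to 17 bases in RPL38, RPLP2 and RPL36A. RPS28 had none at its annotated start. A match of letters at an annotated start is a description of the sequence, and no start site was measured here.

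**Figure D1:**
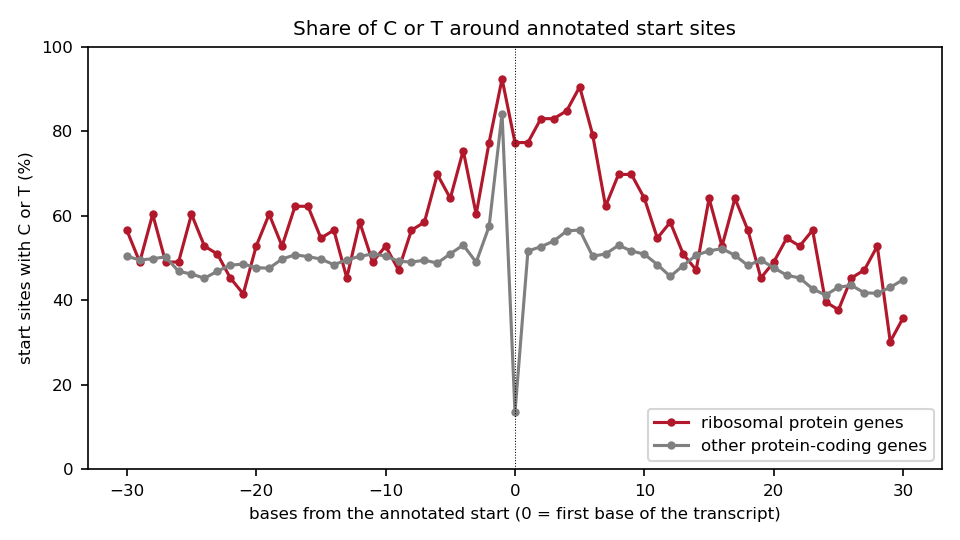
Share of annotated start sites with a C or T (y axis, %) at each base from 30 before to 30 after the first transcribed base (x axis, 0), for 53 starts of 46 ribosomal protein genes (red) and for the starts of the other protein-coding genes in RefSeq (grey). At position 0 the share was 77.4% in ribosomal protein genes and 13.5% in the other genes, and from 2 to 4 bases further on it stayed between 83.0% and 84.9%, against 52.7% to 56.4%.

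The array values are log2 MAS5 signals; below, signals are given on the linear scale and differences as the log2 ratio of GAS2DN over Venus. Both arrays had the same 2% trimmed mean signal of 500.1, and the median signal was 69.2 on the GAS2DN array and 55.8 on the Venus array. Because each array was scaled to the same mean, a difference in total RNA per cell could not be seen, and in such a bulk sample fewer cells of a type and less RNA per cell cannot be told apart. The single probe set of GAS2 had 34.7 in GAS2DN cells and 24.3 in Venus cells, both below the array medians, and the files do not say whether it reads the part that GAS2DN keeps. Of 6 markers of the megakaryocyte lineage, ITGA2B, GATA1, SELP, GP9 and ITGB3 were above the median of both arrays, from 9238 in GAS2DN cells and 7149 in Venus cells for ITGA2B to 162 in GAS2DN cells and 88.5 in Venus cells for ITGB3, and PF4 was below both with 25.9 in GAS2DN cells and 40.8 in Venus cells. Among markers of other cells, the erythroid HBE1 had 14.3 in GAS2DN cells and 65.3 in Venus cells, the lymphoid CD3E 59.8 in GAS2DN cells and 29.5 in Venus cells, and COL1A2, of fibroblasts, 111 in GAS2DN cells and 41.0 in Venus cells. The part of such cells in the values below was not tested.

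On the deposited scale ribosomal protein signals were slightly higher in GAS2DN cells than in Venus cells, by a median of 1.18-fold over eligible probe sets, in nearly all genes of both subunits, and this shift was nearly absent after quantile normalization. A probe set was called eligible when the brighter of its 2 signals reached the median of its array. This held for 105 of the 111 probe sets and for all 52 genes, and 4 of the 105 passed on 1 array only. The eligible probe sets had a median log2 ratio of 0.23 (interquartile range 0.10 to 0.33), against 0.05 over all 24921 eligible probe sets of 1 gene. The ratio was above 0 for 87 of the 105 (82.9%), against a background of 54.8%. Without the filter it was above 0 for 92 of all 111. The size of this shift depended on how the 2 arrays were scaled: the number above 0 among the 105 was 84 after centring the ratios on their median over all eligible probe sets of 1 gene, 79 after a loess fit on signal strength and 59 after quantile normalization, and the median was 0.19, 0.10 and 0.03 under these scalings in turn.

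Few members passed a fold threshold. Among the eligible probe sets only RPS27 236621_at was over 1.5-fold higher, with 72.7 in GAS2DN cells and 40.9 in Venus cells, which is 1 of 105 (background 15.4%). 4 probe sets were over 1.5-fold lower (background 11.9%), which were RPLP2 217670_at, RPL7 239493_at, RPL35A 225190_x_at and RPL36A 243201_at. The RPS27 probe set was eligible only through its GAS2DN signal, and those of RPLP2 and RPL36A only through their Venus signals. With array medians of 69.2 for GAS2DN and 55.8 for Venus, the RPS27 set had to be higher in GAS2DN cells. Those of RPLP2 and RPL36A did not have to differ, but they passed only through the array on which they were higher. Nothing is therefore read from the counts. None was over 3-fold higher (background 4.93%), and 1, RPLP2 217670_at, was over 3-fold lower (background 3.34%). All of these except RPL35A 225190_x_at were dim, with no signal above 184 on either array. Ratios of dim probe sets were spread more widely on these arrays in general: the SD over other genes was 0.68 where the mean log2 signal lay between 6 and 8, and 0.13 where it lay between 15 and 16. The 6 probe sets under the filter had signals below 35 on both arrays, and their ratios ran from -1.65 for RPS6 211690_at to 2.08 for RPS9 1557981_at.

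**Figure D2:**
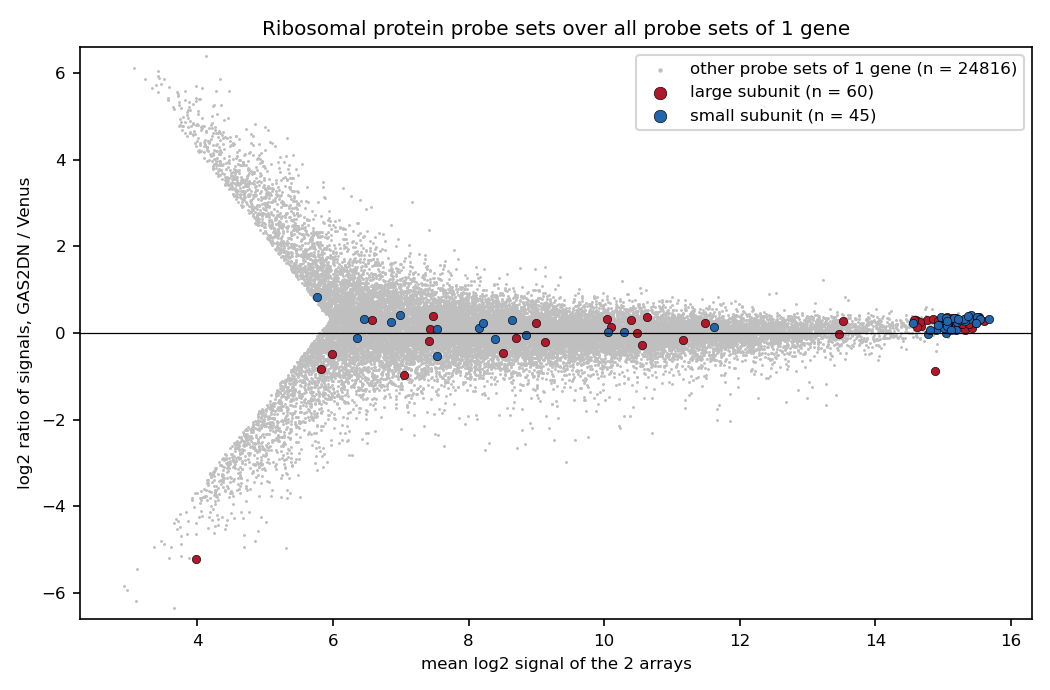
Log2 ratio of GAS2DN over Venus (y axis) against the mean log2 signal of both arrays (x axis) for 60 eligible probe sets of the large subunit (red), 45 of the small subunit (blue) and 24816 other eligible probe sets of 1 gene (grey), as deposited. Most ribosomal protein probe sets form a tight group at the bright end, slightly above 0, with RPL35A 225190_x_at below it at -0.86. This offset above 0 shrinks to a median of 0.03 over the 105 after quantile normalization.

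The members gathered at the bright end of the array. 70 of the 111 probe sets, from 49 of the 52 genes, had signals above 10000 on both arrays, out of 638 such probe sets of 1 gene in all. The limit of 10000 was set after the values had been seen. These 70 ran from 11226 to 58539 in GAS2DN cells (median 38898) and from 10722 to 46594 in Venus cells (median 33593). Their median log2 ratio was 0.27, a 1.20-fold difference, with an interquartile range of 0.17 to 0.33. The ratio was above 0 for 67 of the 70. Of the 568 other probe sets above 10000 on both arrays, 71.8% were above 0, with a median ratio of 0.11. Signals of these 568 were lower, with a median of 16367 in GAS2DN cells and 15539 in Venus cells. The 67 became 66 after centring, 59 after loess and 38 after quantile normalization, with medians of 0.22, 0.13 and 0.02. For the 568 other probe sets the medians under these scalings were 0.06, 0.02 and 0.01.

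Other bright probe sets also had ratios above 0 in the median. Where the mean log2 signal lay between 15 and 16, 48 members had a median ratio of 0.28 (0.00 to 0.41) and 32 other probe sets a median of 0.21 (SD 0.13). Between 14 and 15, 20 members had a median of 0.25 and 243 others one of 0.14 (SD 0.18). At lower signals the medians of other genes were 0.14 between 6 and 8, and 0.01 between 8 and 10. From 10 upward they rose at each step, with 0.008 between 10 and 12, 0.03 between 12 and 14, and the values above 14 just given. The hybridisation controls, bacterial and phage transcripts added to each sample in the same amounts, had a median of 0.20 over the 7 probe sets above 10000 (-0.01 to 0.36) and of 0.05 over all 18. The 35 eligible members that were not above 10000 on both arrays had a median of 0.10, with 20 above and 15 below 0. The part of signal strength in the members' ratios was not tested.

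**Figure D3:**
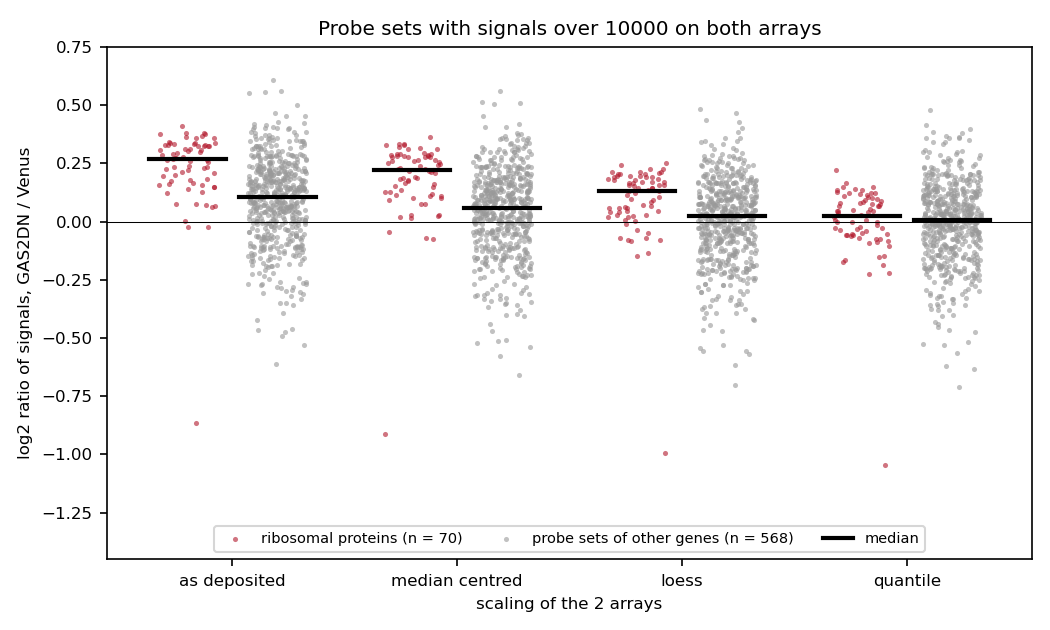
Log2 ratio of GAS2DN over Venus (y axis) of the probe sets above 10000 on both arrays under 4 scalings (x axis), 70 of ribosomal proteins (red) beside 568 of other genes (grey), with the median of each as a bar. The medians of the ribosomal proteins were 0.27 as deposited, 0.22 after centring, 0.13 after loess and 0.02 after quantile normalization, against 0.11, 0.06, 0.02 and 0.01 for the other genes.

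Each gene was then read by 1 main probe set, its brightest, leaving out those ending in _x_at where another existed. The 52 genes had a median log2 ratio of 0.24, against 0.06 over 13370 measured genes. Of the 52, 47 were above 0, against 56.35% of all measured genes. The number above 0 was 46 after centring, 42 after loess and 26 after quantile normalization. The 2 subunits had nearly the same values. The 32 large subunit genes had a median of 0.23 with 28 above 0, and the 20 small subunit genes a median of 0.26 with 19 above 0. Among the bright probe sets the medians were 0.27 over 40 of the large and 0.28 over 30 of the small subunit. Their difference by main probe set, large minus small, was -0.03, and it lay between -0.04 and 0.02 under the alternatives tried, so that its sign was not stable.

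The 5 genes with the highest ratio by main probe set belonged to both subunits. RPL37A, a zinc-binding protein of the large subunit, had 53762 in GAS2DN cells and 41392 in Venus cells. RPS16, whose tail reaches towards the peptidyl site of the small subunit, had 52965 in GAS2DN cells and 40844 in Venus cells. RPS10, at the beak of the small subunit, had 53135 in GAS2DN cells and 41138 in Venus cells. The log2 ratios of RPL37A, RPS16 and RPS10 were 0.38, 0.37 and 0.37, so that they lay close together. RPS15A had 36413 in GAS2DN cells and 28344 in Venus cells (0.36), and RPL23A, beside the exit of the peptide tunnel, had 42203 in GAS2DN cells and 32932 in Venus cells (0.36). By main probe set all 5 stayed above 0 under every scaling tried, at 0.07 to 0.15 after quantile normalization. They were picked as the highest of these same values, so that nothing is read from this. Of the other bright probe sets of RPS16, 201258_at had 0.06, and -0.15 after quantile normalization, and 213890_x_at had 0.34 and 0.12. The 2 dim probe sets of RPL37A were at -0.47 and -0.12 as deposited.

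At the other end, 4 of the 5 lowest genes (RPL7, RPL36A, RPLP2 and RPL38) were read by a probe set with weak or moderate signals, of at most 2425. RPL7, a large subunit protein, had 94.6 in GAS2DN cells and 184 in Venus cells by 239493_at (log2 ratio -0.96). Its 2 bright probe sets, which end in _x_at, stood above 0 instead, 200717_x_at with 54557 in GAS2DN cells and 45305 in Venus cells (0.27) and 212042_x_at with 45723 in GAS2DN cells and 41969.8 in Venus cells (0.12), although both fell below 0 after quantile normalization. RPL36A, near the exit site for tRNA, was read by 243201_at alone, with 42.3 in GAS2DN cells and 75.2 in Venus cells (-0.83). Only the Venus signal of that probe set was above its array's median. RPL38 had 2174 in GAS2DN cells and 2425 in Venus cells by 202028_s_at (-0.16), while its bright 202029_x_at had 38152 in GAS2DN cells and 30769.7 in Venus cells (0.31). RPS28, of the mRNA channel, was the bright gene among the 5, with 27838 in GAS2DN cells and 28311 in Venus cells (-0.02).

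**Figure D4:**
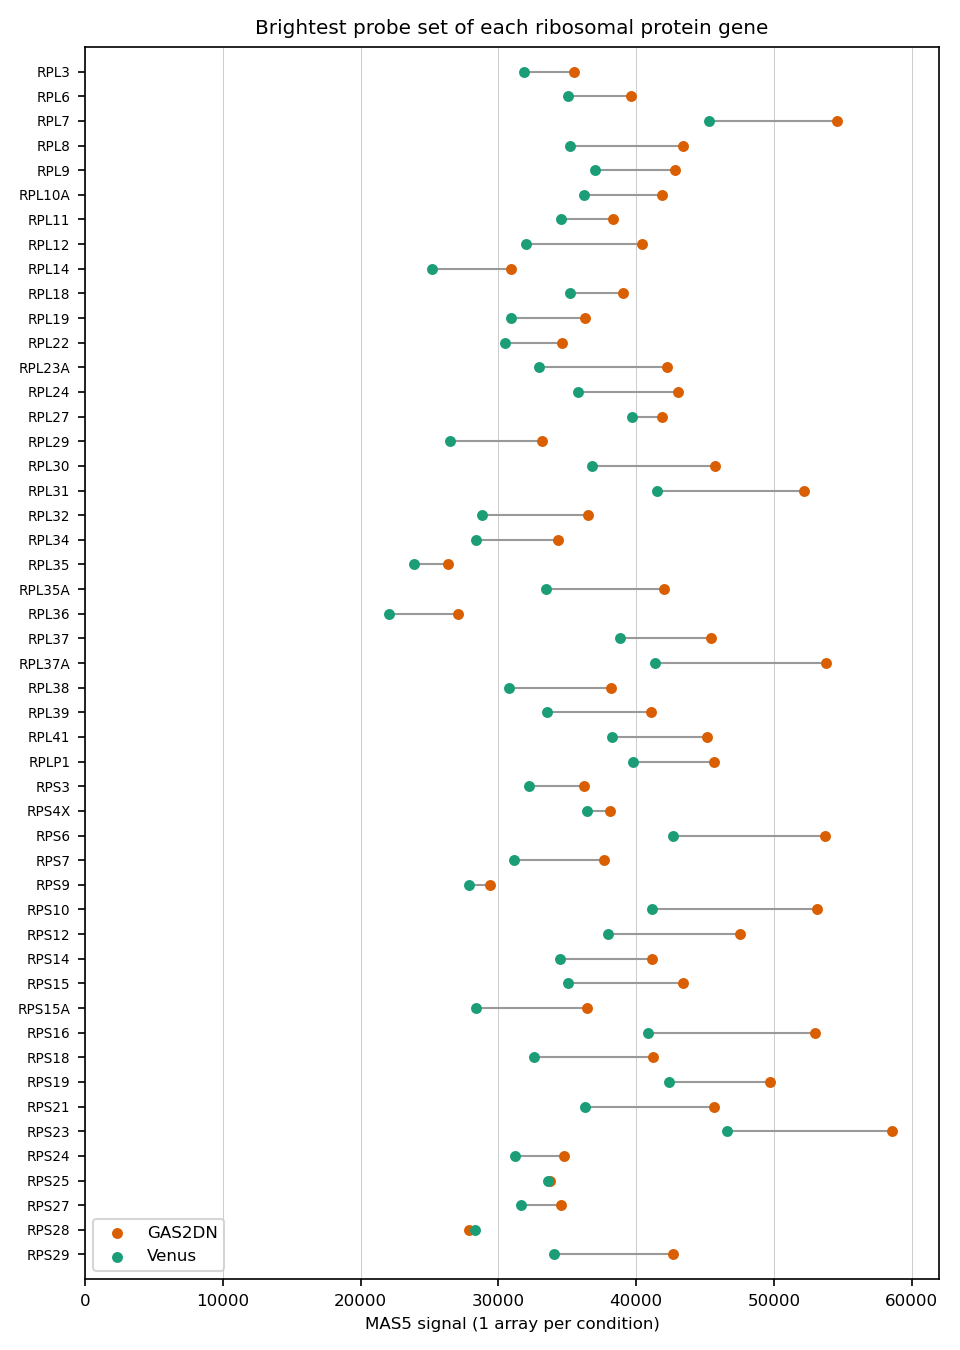
Linear MAS5 signal (x axis, in the array's units) on the GAS2DN array (orange) and the Venus array (green) for the brightest probe set of the 49 genes with a probe set above 10000 on both arrays. The GAS2DN point lies to the right of the Venus point except for RPS28 (27838 in GAS2DN cells and 28311 in Venus cells), and the 2 points nearly coincide for RPS25. After quantile normalization about as many bright probe sets lay above 0 (38 of 70) as below. Signals of different probe sets cannot be set against each other.

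The P stalk of the large subunit, which recruits the translation factors that hydrolyse GTP, is formed by RPLP0, RPLP1 and RPLP2. RPLP1 had 45625 in GAS2DN cells and 39737 in Venus cells (log2 ratio 0.20, and -0.06 after quantile normalization). RPLP2 was read by 200908_s_at with 159.9 in GAS2DN cells and 183 in Venus cells (-0.19), and by 217670_at with 2.60 in GAS2DN cells and 96.2 in Venus cells (-5.21). The second of these is the largest difference among the members, and it rests on a Venus signal that is not far above the array median of 55.8 and on a GAS2DN signal far under the median of 69.2. With low signals raised to the array median its ratio became -0.47. RPL11, which with RPL5 and the 5S RNA forms the particle that can bind MDM2 and stabilise p53, had 38309.8 in GAS2DN cells and 34535 in Venus cells (0.15, and -0.09 after quantile normalization).

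The proteins around the exit of the peptide tunnel, where chaperones and the signal recognition particle dock, had 7 of 10 genes on probe sets of their own. All 7 were above 0 (members 47 of 52, all measured genes 56.35%), with a median of 0.23 (members 0.24). After quantile normalization 5 of the 7 stayed above 0 (members 26 of 52). The highest was RPL23A, given above. The lowest was RPL35, with 26363 in GAS2DN cells and 23891 in Venus cells (0.14). RPL39, which lines the tunnel itself, had 41089.9 in GAS2DN cells and 33563 in Venus cells (0.29), and RPL19 had 36317 in GAS2DN cells and 30908 in Venus cells (0.23). Around the tRNA sites RPL3, which reaches the peptidyl transferase centre, had 35509.6 in GAS2DN cells and 31855 in Venus cells (0.16). RPL10A of the same region had 41859.6 in GAS2DN cells and 36230.0 in Venus cells (0.21). Both values were at -0.05 after quantile normalization.

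In the small subunit, 3 of 5 genes of the mRNA channel were measured, with a median of 0.17 that became -0.04 after quantile normalization. RPS23, at the decoding centre, had 58539 in GAS2DN cells and 46594 in Venus cells (0.33), and RPS3, at the entry of the mRNA, had 36215 in GAS2DN cells and 32248 in Venus cells (0.17). Of the 5 genes of the beak and head, 4 were measured and lay above 0 (members 47 of 52, all measured genes 56.35%). Their median was 0.28 (members 0.24), and 2 of the 4 stayed above 0 after quantile normalization. RPS10 was the highest of them. RPS25, which several viral internal ribosome entry sites need, was the lowest, with 33719 in GAS2DN cells and 33623 in Venus cells (0.00). RPS6, the substrate of the S6 kinases downstream of mTOR, had 3 bright probe sets. They read 48074, 53670.4 and 49525 in GAS2DN cells, against 36895, 42655 and 42513 in Venus cells, with log2 ratios of 0.38, 0.33 and 0.22.

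Of 18 genes mutated in Diamond-Blackfan anaemia, 13 were measured, 12 of them above 0 (members 47 of 52, all measured genes 56.35%). Their median by main probe set was 0.16, below the 0.24 of all 52 members, against 0.06 over all measured genes. Over the 32 eligible probe sets of these genes the median was instead 0.25, against 0.23 over the 105 of all members. After loess 10 of the 13 and after quantile normalization 5 of the 13 were above 0 (members 42 and 26 of 52). RPS19, the gene most often mutated in this disease, had 49746 in GAS2DN cells and 42369 in Venus cells (0.23). The highest of the 13 was RPS10 and the lowest RPS28. RPL27 had 41838 in GAS2DN cells and 39717 in Venus cells (0.08), and RPS29 had 42670.0 in GAS2DN cells and 34058 in Venus cells (0.33). No gene of the list was over 1.5-fold by its main probe set. Over all eligible probe sets of 1 gene, 15.4% were higher and 11.9% lower by this much. RPS14, the gene of the 5q- syndrome, had 41167 in GAS2DN cells and 34507 in Venus cells (0.25), and 0.00 after quantile normalization.

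The 20 genes in none of these lists and at neither end of the order are given for completeness. Since the 5 genes below 0 by main probe set were the 5 lowest, all 20 were above 0 by this choice, from 0.07 for RPS4X to 0.34 for RPL32, with a median of 0.29, and 18 stayed above 0 after loess and 13 after quantile normalization. They were RPL6, RPL8, RPL9, RPL12, RPL14, RPL24, RPL27A, RPL29, RPL30, RPL32, RPL34, RPL36 and RPL41 in the large subunit, and RPS4X, RPS6, RPS9, RPS14, RPS15, RPS18 and RPS21 in the small subunit. RPL32 had 36480.5 in GAS2DN cells and 28827 in Venus cells (0.34). RPS4X, whose gene lies on the X chromosome, had 38108 in GAS2DN cells and 36410.4 in Venus cells (0.07), and its second probe set gave the same ratio. RPL27A was the one gene of the 20 without a bright probe set of its own, with 552 in GAS2DN cells and 469 in Venus cells (0.24).

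Probe sets of the same gene differed less where signals were strong, apart from RPL35A. Over the 15 genes with 2 or more bright probe sets (36 in all), the span from lowest to highest had a median of 0.10, and the SD within a gene was 0.21. This SD dropped to 0.094 without RPL35A 225190_x_at. The SD between the gene means was 0.097 with RPL35A left out, over all genes with a bright probe set, those with only 1 included. The 2 SDs were thus of similar size but were taken over different sets of genes. 3 genes spanned over 0.2, which were RPL35A, RPS16 (0.06 to 0.37) and RPL22 (-0.03 to 0.27). RPL35A, a gene of Diamond-Blackfan anaemia, had 22323 in GAS2DN cells and 40638 in Venus cells by 225190_x_at, a log2 ratio of -0.86, which was the lowest of all 638 bright probe sets of 1 gene. Its bright 213687_s_at had 42045 in GAS2DN cells and 33428 in Venus cells (0.33). The other 3 probe sets of the gene also differed in sign. 238026_at had 1488 in GAS2DN cells and 1212 in Venus cells (0.30), 215208_x_at had 205 in GAS2DN cells and 156 in Venus cells (0.39), and 215249_at had 53.4 in GAS2DN cells and 74.9 in Venus cells (-0.49). The opposite signs of 225190_x_at and 213687_s_at held under all scalings. The files do not place these probe sets on the transcript.

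Among eligible probe sets of any strength, 30 genes had 2 or more and 3 of them spanned over 1 log2 unit, which were RPLP2 (5.02), RPL35A (1.26) and RPL7 (1.23). Further genes had a bright and a dimmer probe set of opposite sign, among them RPL38 (given above), RPS23, RPS24 and RPS28. The widest gaps of this kind besides those 3 genes were in RPS15, with 43366 in GAS2DN cells and 35083 in Venus cells by 200819_s_at (0.31) but 154 in GAS2DN cells and 221 in Venus cells by 1563014_at (-0.52), and RPL37A, whose dim 213459_at had 309 in GAS2DN cells and 428 in Venus cells (-0.47). RPL37 was read by 4 probe sets, the bright 200092_s_at with 45426.5 in GAS2DN cells and 38816 in Venus cells (0.23) and 3 with signals between 519 and 1433 and ratios of -0.21, 0.00 and 0.14. RPS10 differed from these, since its 4 probe sets, 1 of them dim, lay between 0.30 and 0.41.

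**Figure D5:**
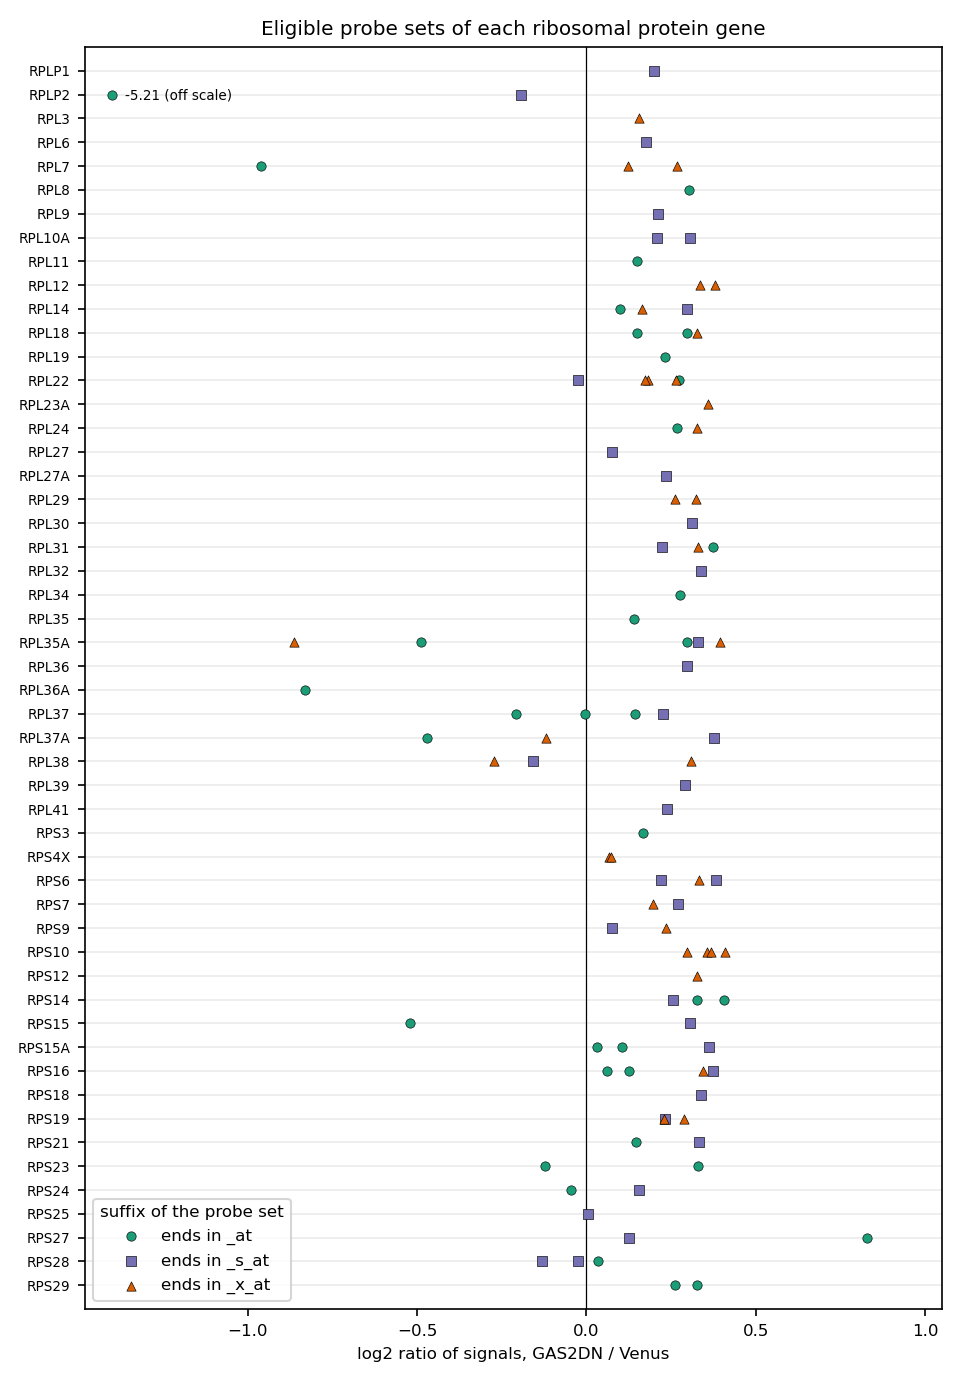
Log2 ratio of GAS2DN over Venus (x axis) of each eligible probe set of the 52 genes (rows), as deposited, marked by suffix: _at (circles), _s_at (squares) and _x_at (triangles). Most points lie between 0 and 0.41, and this offset is largely absent after quantile normalization (median 0.03). RPL35A, RPL7, RPL36A and RPLP2 reach furthest to the left, and the point at the left edge for RPLP2 stands for -5.21.

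The suffix of a probe set tells how specific its probes are. On this array _at marks probes designed for 1 transcript, _s_at probes that match several transcripts, and _x_at sets in which some probes also match other sequences. This bears on ribosomal proteins, whose genes have many processed pseudogenes of almost the same sequence, so that signals of single genes are uncertain. The eligible members were spread evenly, with 36 ending in _at (median log2 ratio 0.15), 36 in _s_at (0.23) and 33 in _x_at (0.29). Over all eligible probe sets of 1 gene the medians were 0.04, 0.04 and 0.11 for these suffixes in turn. Among bright members the gap was smaller, with 0.25 for 12 in _at, 0.25 for 31 in _s_at and 0.29 for 27 in _x_at. All 12 bright _at sets, the most specific kind, were above 0 as deposited (0.06 to 0.33), 11 of them after loess and 6 after quantile normalization. Of the 171 bright _at sets of other genes, 117 (68.4%) were above 0 as deposited, 93 after loess and 89 after quantile normalization. Their median signal in GAS2DN cells was 15045, against 37313 for the 12. The other bright probe sets had 0.10 for 171 in _at, 0.06 for 267 in _s_at and 0.18 for 129 in _x_at.

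Probe sets assigned to several genes of which 1 or more was a ribosomal protein gene were read as a group only, since their signal cannot be given to 1 gene. There were 64 of them, naming 22 genes. The 62 eligible ones had a median log2 ratio of 0.26 (-1.08 to 1.77). Of these 62, 56 were above 0 and 6 below (90.3% above, background 54.8%), and 40 were above 0 after quantile normalization. Of the 64, 46 were bright. All 46 had a ratio above 0 as deposited, between 0.05 and 0.43, with a median of 0.31. The number above 0 was 45 after centring, 41 after loess and 31 after quantile normalization. Of the 568 bright probe sets of 1 gene that were no members, 71.8% were above 0 as deposited. Their median signal in GAS2DN cells was 16367, against 43190 for the 46. Under these scalings in turn, 357, 309 and 293 of the 568 were above 0. The median over the 70 bright members was 0.27.

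Genes next to the rule were also read. Of 11 genes that encode ribosomal proteins or their paralogues under other names, 7 were measured, with a median of 0.15 by main probe set. Of the 7, 5 were above 0 (members 47 of 52, all measured genes 56.35%). FAU, which encodes RPS30 fused to a ubiquitin-like protein, had 31699 in GAS2DN cells and 26114 in Venus cells (0.28). RPL10L, a paralogue known from the testis, was the only one over 1.5-fold, with 174 in GAS2DN cells and 109.9 in Venus cells (0.67). RPS27L, a p53 target, had 15042 in GAS2DN cells and 11766 in Venus cells (0.35), and its 3 eligible probe sets ran from -0.26 to 0.60. RPL22L1, the paralogue of RPL22, had 6086 in GAS2DN cells and 6095 in Venus cells (0.00). RPL7L1, with a bright probe set, had 10306 in GAS2DN cells and 11167 in Venus cells (-0.12).

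Genes known for a TOP tract but outside the rule were read in the same way. Of 18 such genes, 14 were measured, FAU among them again, and 11 of the 14 were above 0 (members 47 of 52, all measured genes 56.35%). Their median was 0.17 as deposited (members 0.24, all measured genes 0.06) and 0.04 after quantile normalization. On the bright probe sets the median was 0.18, with 23 of 26 above 0, against 71.8% of the 568 bright probe sets that were no members. The 568 were not matched to these 26 by signal strength. TPT1, the translationally controlled tumour protein, had 44688 in GAS2DN cells and 32609.5 in Venus cells (0.45). Its other bright probe sets were lower, at 0.11, 0.34, 0.32 and 0.17. NPM1, a nucleolar chaperone, had 44016 in GAS2DN cells and 35372.5 in Venus cells (0.32). Its 2 other bright probe sets were at 0.22 and -0.30. EEF1A1 (-0.17) and NAP1L1 (-0.10) were below 0 by main probe set. Their eligible probe sets ran from -0.17 to 2.38 and from -0.67 to 0.14. The bright probe sets of EEF1A1, which end in _x_at, were at 0.26, 0.19, 0.17 and 0.37, and the 2.38 came from a dim one. Those of NAP1L1 above 10000 on both arrays were at 0.14, -0.08 and -0.10. PABPC1, the poly(A)-binding protein, was the only one over 1.5-fold by its main probe set, a dim one with 36.5 in GAS2DN cells and 59.7 in Venus cells (-0.71), while its other eligible probe set was at 0.36. With _s_at and _x_at sets left out, 8 genes remained and their median was -0.13. For EIF3E, EIF3F and NAP1L1 this choice took dimmer probe sets, at -1.03, -0.08 and -0.67. They stood in place of bright main ones at 0.23, 0.21 and -0.10.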

How the data were processed

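The authors hybridised RNA pooled from 3 preparations per condition to 1 Human Genome U133 Plus 2.0 array each and deposited log2 MAS5 values; the submitters' processing notes name MAS5 without a version, and no detection calls were used. Values were turned into linear signals, and log2 ratios are GAS2DN minus Venus. The platform's annotation gave 41091 probe sets 1 gene, 1801 several and 11721 none, and 62 were controls; current symbols came from the gene identifiers. With 1 array per condition no test was run. The number of arrays limits the precision.

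A probe set was eligible when its brighter signal reached its array's median, bright when both signals reached 10000. Each gene's main probe set was its brightest eligible one by mean log2 signal, with _x_at sets passed over where another existed. Alternatives were no filter, both signals at the median, the brighter at percentile 75, centring, loess (span 0.2, 3 iterations), quantile normalization, low signals raised to the median, other suffixes, and the median over probe sets. The limit of 10000 and the brightest probe set of any suffix were chosen after seeing the data. Genes named were the 5 highest and 5 lowest by main probe set, those over 3-fold or spanning over 2 log2 units, up to 4 per list, and non-members over 1.5-fold; others, such as RPS6, RPS14, RPS15, RPS27, RPL35A, RPL37, FAU, RPS27L, TPT1 and NPM1, were chosen after their values were seen. The members and lists were chosen with earlier results of these data known. Sequences came from RefSeq start sites. Scripts were tested on simulated data. Software was matplotlib 3.10.9, statsmodels 0.14.6, scipy 1.17.1, pandas 2.3.3 and numpy 2.4.6 under Python 3.11.15.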

Additional observations from a re-analysis of the deposited data

How the results depend on the processing

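Of 114 alternative values, 87 stayed within the limits set for each result and 27 moved. For medians the limit was the SD of 0.21 between bright probe sets of 1 gene, a wide one that rests on RPL35A 225190_x_at (0.094 without it), so that staying within it is no sign of stability. The median of the eligible probe sets, 0.23, was 0.10 after loess and 0.03 after quantile normalization, and _x_at minus _at, 0.14, was 0.05 after quantile normalization and 0.04 among bright sets. The share of eligible members below 0 was 17.1% as deposited, 41.9% after quantile normalization, 27.8% without _s_at and _x_at sets and 4.29% among bright sets. The median by main probe set, 0.24, became 0.00 after quantile normalization (0.0039). The 1 probe set over 1.5-fold higher became 3 without a filter and 0 with both signals at the median, at percentile 75, after loess, after quantile normalization, with low signals raised and among bright sets. The 4 over 1.5-fold lower became 6 after loess or quantile normalization, 5 without a filter, 3 without _x_at sets, 2 with both signals at the median or low signals raised, and 1 at percentile 75 or among bright sets. Over 3-fold higher, 0 became 1 without a filter. Over 3-fold lower, 1 became 2 without a filter and 0 with both signals at the median, at percentile 75, with low signals raised and among bright sets. The 3 genes spanning over 1 log2 unit became 6 without a filter, 1 at percentile 75, without _x_at sets or among bright sets, and 0 without _s_at and _x_at sets. The median of the other TOP genes, 0.17, became -0.13 without _s_at and _x_at sets, when 8 genes were left, some read by dimmer probe sets. The cause of these shifts was not tested beyond the probe sets each setting left out. No paired analysis was possible because each condition had 1 array. With 2 arrays, shifts of the size seen here have no measure of array-to-array error beside them.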
